A study of Mus musculus with 6 samples.

Results

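Laminins are the main adhesive proteins of the sheet of matrix under epithelia, the basement membrane, and integrins are the receptors by which epithelial cells hold on to them. The 10 genes described here encode 4 integrin subunits, Itgb4, Itga6, Itga3 and Itgb1, and 6 laminin chains, Lama5, Lama3, Lamb1, Lamb2, Lamb3 and Lamc1, out of 21959 genes in the deposited table. They were named as a family and found by gene symbol through GENCODE M21. The choice was made with the difference between the groups in view, so that difference is described for these genes and not tested. The RNA came from cells that the labels call tumour neutrophils, in models made with the mouse hepatoma line Hepa1-6. There are 3 libraries labelled GPR35 positive and 3 labelled GPR35 negative, after GPR35, a G protein-coupled receptor. The sources used here give neither strain, sex, age nor the way in which cells were divided. No source ties a replicate to an animal of its own, so each p-value below measures spread between samples that may be technical.

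A laminin is a trimer of an alpha, a beta and a gamma chain. The epithelial integrins α6β4 and α3β1 bind laminins that hold the α5 or the α3 chain, and α6β1 binds laminins more broadly. The β4 subunit joins the keratin skeleton at hemidesmosomes, the rivets between epithelium and matrix, whereas β1 pairs with many alpha subunits, binds actin-linked proteins and is made by almost every adherent and blood cell. Laminins with the α3 and β3 chains anchor skin and other lining epithelia, and those with an α5 chain, a β1 or β2 chain and a γ1 chain are the usual laminins of mature basement membranes.

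The labelled cell type and the family's name were checked against marker lists. Mature neutrophil markers, 14 genes such as S100a8 and Csf3r, summed to between 9559 and 10508 FPKM in GPR35-positive libraries and to between 879 and 1121 FPKM in GPR35-negative ones. FPKM count sequenced fragments relative to the length of a gene and the size of a library. Hepatoma transcripts, a list of 19 genes that includes Krt18, Trf, Afp and Alb, summed to between 19231 and 19582 FPKM in GPR35-positive libraries and to between 28652 and 30188 FPKM in GPR35-negative ones. Transcripts of both kinds were thus abundant in both groups, although the label names neutrophils, and in such bulk samples fewer cells of a type and less RNA per cell cannot be told apart. Epithelial genes were present, with Epcam at 82.4 ± 2.84 FPKM in GPR35-positive and 135 ± 11.1 FPKM in GPR35-negative libraries (SD, n = 3 each). Cdh1, the E-cadherin gene, was close to undetected, at 0.0622 ± 0.0293 FPKM in GPR35-positive and 0.0354 ± 0.0308 FPKM in GPR35-negative libraries. Gpr35 itself was at 20.2 ± 1.89 FPKM in GPR35-positive and 1.57 ± 0.398 FPKM in GPR35-negative libraries (SD, n = 3 each). The libraries held between 15742744 and 18314104 reads assigned to genes, and the members other than Lama3 were covered by between 244 and 9799 reads in each.

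Promoter windows, 250 bases before to 50 after an annotated start, were held in RefSeq (GRCm38.p6) for 6 of the 10 genes, as 8 windows. Those of Lama5, Itgb1 and Lamb3 are printed because their transcripts had, of the family, the largest fall, the smallest fall and the one rise. Lamb3 has 2 windows, of which the one with the earlier start is shown. Capitals mark the GC box GGGCGG, read on both strands.
Lama5 (chr2:180225810-180226109, reverse strand): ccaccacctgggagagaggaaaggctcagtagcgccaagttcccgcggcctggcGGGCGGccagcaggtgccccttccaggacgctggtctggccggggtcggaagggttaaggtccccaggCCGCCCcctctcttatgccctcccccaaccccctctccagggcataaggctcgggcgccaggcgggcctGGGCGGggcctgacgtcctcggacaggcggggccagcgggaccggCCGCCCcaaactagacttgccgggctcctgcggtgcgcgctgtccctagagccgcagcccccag
Itgb1 (chr8:128685404-128685703, forward strand): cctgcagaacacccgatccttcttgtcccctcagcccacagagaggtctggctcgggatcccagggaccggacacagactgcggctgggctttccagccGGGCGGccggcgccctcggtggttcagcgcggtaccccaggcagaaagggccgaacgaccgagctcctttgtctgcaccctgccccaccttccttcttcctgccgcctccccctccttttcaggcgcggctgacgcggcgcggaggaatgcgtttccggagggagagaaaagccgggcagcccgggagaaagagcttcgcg
Lamb3 (chr1:193301744-193302043, forward strand): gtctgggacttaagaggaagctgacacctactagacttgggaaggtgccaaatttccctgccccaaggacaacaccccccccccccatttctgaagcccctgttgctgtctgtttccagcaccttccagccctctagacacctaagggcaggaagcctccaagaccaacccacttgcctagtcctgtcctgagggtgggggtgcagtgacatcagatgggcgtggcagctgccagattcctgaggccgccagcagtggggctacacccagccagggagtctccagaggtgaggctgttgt
The Lama5 window held 4 GC boxes and 24 CpG dinucleotides, and its GC content was 72.7%. The Itgb1 window held 1 GC box and 27 CpG, with a GC content of 67.3%, and the Lamb3 window shown 0 GC boxes and 2 CpG, with 59.3%. The other Lamb3 window, which starts at 193301993, held 0 GC boxes and 5 CpG. Over the 32851 windows used, 35.7% held a GC box on either strand, the median was 7 CpG and the median GC content 52.7%. These 3 windows had 0 matches, on either strand, to the letters TGANTCA of the AP-1 motif, which 7.8% of all windows held, or to CAAAGTCCA of the HNF4 motif, which 0.5% held. The letters TATAAA, held by 13.6%, and the CCAAT motif, held by 37.4%, likewise had 0 matches in them. A match of letters is a description of the window and shows no binding.

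The family as a whole was lower in GPR35-positive libraries, with 1 clear exception. Of the 10 genes, 9 reached at least 1 FPKM in at least 3 libraries and were in the fit, and these did so in all 6 libraries. Of these 9, 8 had all 3 GPR35-positive libraries below all 3 GPR35-negative ones, and 1, Lamb3, had them above. Over all 10060 genes in the fit the share separated downwards was 48.2% and the share separated upwards 24.3%. In limma's fit, 8 of the 9 fell below an adjusted p of 0.05 with a lower and 1 with a higher level, where the shares of all genes were 45.5% and 23.3%; since the genes were chosen on this difference, nothing is read from those counts. The median log2 fold change of the 9, on the log2(FPKM + 1) scale, was −0.69, beside −0.19 for all genes in the fit. With median-of-ratios scaling, which moved the median of all genes to −0.07, that of the 9 was −0.59, and Itgb1 was no longer below the threshold.

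**Figure D1:**
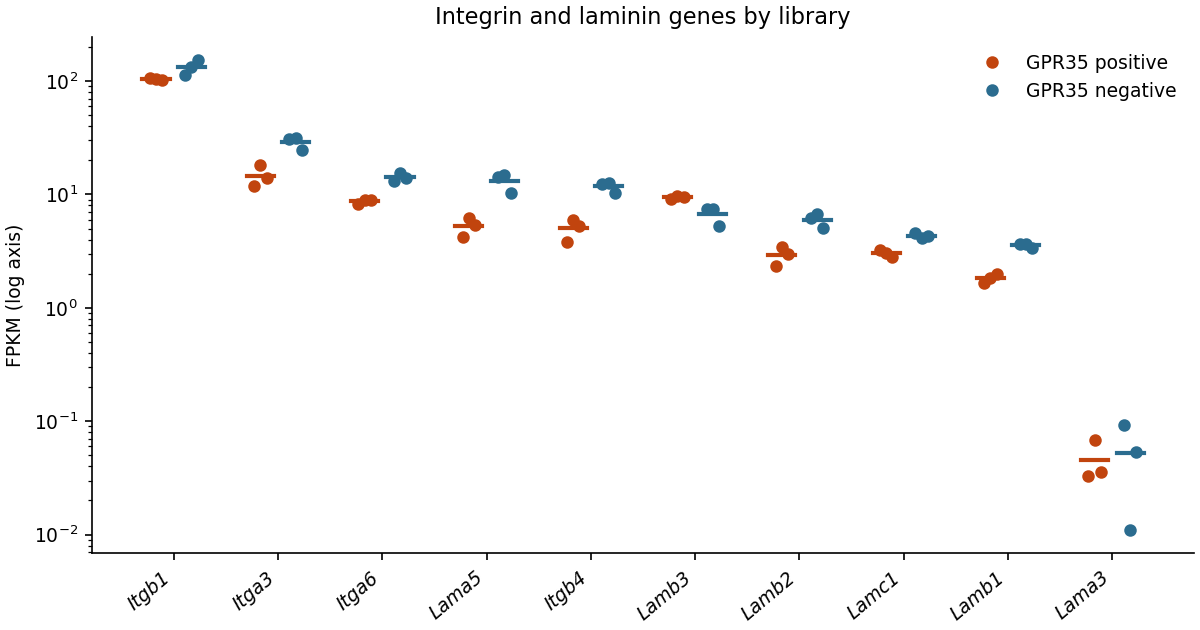
FPKM (log axis) of the 10 genes in each library, with 3 GPR35-positive libraries (left, orange) and 3 GPR35-negative libraries (right, blue) per gene and bars at the group means. The orange points lie below the blue ones in 8 genes and above them in Lamb3, and Lama3 stays below 0.1 FPKM throughout.

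Itgb4, the partner of Itga6 in hemidesmosomes, had the largest fall among the integrin subunits. It was at 3.84, 5.96 and 5.29 FPKM in the 3 GPR35-positive libraries, against 12.5, 12.6 and 10.4 FPKM in GPR35-negative ones. The groups were far apart, with the highest GPR35-positive value well short of the lowest GPR35-negative one. The means were 5.03 ± 1.09 FPKM in GPR35-positive and 11.8 ± 1.24 FPKM in GPR35-negative libraries (SD, n = 3 each), a ratio of 0.426, and the log2 fold change was −1.10 (SE 0.13). The gene, ENSMUSG00000020758, occupies chr11:115974709-116008412 on the forward strand (GRCm38), and 537 of its exon bases are shared with the antisense transcript B230344G16Rik, which is not in the table.

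Itga3, the alpha subunit of the laminin receptor α3β1, fell nearly as far. It was at 11.8, 18.1 and 14.05 FPKM in the 3 GPR35-positive libraries, against 30.9, 31.5 and 24.5 FPKM in GPR35-negative ones. The groups did not overlap, and the GPR35-positive libraries spread more widely in proportion. The ratio of means was 0.505 and the log2 fold change −0.95 (SE 0.14). Itga6, which pairs with both β4 and β1 and is also made by platelets and some leukocytes, was at 8.22, 8.98 and 8.98 FPKM in the 3 GPR35-positive libraries, against 13.1, 15.6 and 13.9 FPKM in GPR35-negative ones. Its libraries were close together within each group, and its ratio of 0.614 was nearer to 1 than that of Itgb4, its epithelial partner.

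Itgb1, by far the most abundant of the 10, differed least. It was at 107, 105 and 103 FPKM in the 3 GPR35-positive libraries, against 113, 134 and 153 FPKM in GPR35-negative ones. The GPR35-positive values were nearly equal while the GPR35-negative ones were spread, the lowest of them lying close to the GPR35-positive range. The ratio was 0.788, and the log2 fold change of −0.33 (SE 0.10) moved to −0.44 without GPR35-negative replicate 1 and to −0.23 without GPR35-negative replicate 3. Of the summed FPKM of Itgb1 and Itgb4, Itgb4 made up 4.58 ± 0.989% in GPR35-positive and 8.32 ± 1.81% in GPR35-negative libraries (SD, n = 3 each). Among the platelet markers, which bear on Itga6 and Itgb1, Ppbp was at 52.8 ± 1.30 and Pf4 at 18.3 ± 0.868 FPKM in GPR35-positive libraries, and at 67.3 ± 9.13 and 2.27 ± 0.689 FPKM in GPR35-negative ones (SD, n = 3 each), while the other 5 of 7 stayed under 1 FPKM. The part of platelets or leukocytes in these levels was not tested.

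Among the laminin chains, Lama5 accounted for nearly the whole alpha chain signal and showed the largest fall of the 10 genes. It was at 4.24, 6.21 and 5.35 FPKM in the 3 GPR35-positive libraries, against 14.3, 14.9 and 10.3 FPKM in GPR35-negative ones. Groups were clearly separated, and GPR35-negative replicate 3 was the lowest of its group. The means were 5.27 ± 0.986 FPKM in GPR35-positive and 13.2 ± 2.52 FPKM in GPR35-negative libraries (SD, n = 3 each), a ratio of 0.401, with a log2 fold change of −1.17 (SE 0.15). Lama5 occupies chr2:180176373-180225859 on the reverse strand and shares no exon base with another annotated gene. It made up 96.8 ± 0.437% of the FPKM of the 5 laminin alpha chain genes in GPR35-positive and 99.3 ± 0.266% in GPR35-negative libraries.

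Lama3, the chain of the skin-type laminin, was close to undetected. It was at 0.0326, 0.0684 and 0.0356 FPKM in the 3 GPR35-positive libraries, against 0.0917, 0.0110 and 0.0532 FPKM in GPR35-negative ones, which is 6, 12 and 7 reads in GPR35-positive and 17, 2 and 9 reads in GPR35-negative libraries. The groups overlapped, the gene stayed below the filter, and no fold is given. The other alpha chain genes were as low, with Lama4, the vascular chain, at 0.0855 ± 0.0286 FPKM in GPR35-positive and 0.0179 ± 0.0121 FPKM in GPR35-negative libraries, and Lama1 and Lama2 below it.

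The 3 beta chain genes moved apart. Lamb1, the chain of the widely made α5β1γ1 laminin, was at 1.66, 1.82 and 1.99 FPKM in the 3 GPR35-positive libraries, against 3.64, 3.68 and 3.37 FPKM in GPR35-negative ones. Lamb2, which replaces it in many mature basement membranes, was at 2.34, 3.43 and 2.95 FPKM in the GPR35-positive group, against 6.22, 6.75 and 5.01 FPKM in the GPR35-negative group. Both were lower in every GPR35-positive library, with ratios of 0.512 for Lamb1 and 0.485 for Lamb2 and log2 fold changes of −0.69 (SE 0.08) and −0.84 (SE 0.13). Lamb3, the partner of Lama3 in the skin-type laminin, was at 9.02, 9.72 and 9.48 FPKM in the 3 GPR35-positive libraries, against 7.49, 7.37 and 5.23 FPKM in GPR35-negative ones. Every GPR35-positive library was above every GPR35-negative one, and the ratio of means was 1.40, with a log2 fold change of 0.45 (SE 0.12). It was between 0.30 and 0.53 when 1 library was left out, the lowest being without GPR35-negative replicate 3.

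Lamb3 thus made up 66.6 ± 2.32% of the beta chain FPKM in GPR35-positive libraries and 41.0 ± 2.42% in GPR35-negative ones (SD, n = 3 each). Lamb2 made up 20.5 ± 2.48% in GPR35-positive and 36.9 ± 1.05% in GPR35-negative libraries, and Lamb1 12.9 ± 0.852% in GPR35-positive and 22.1 ± 2.28% in GPR35-negative libraries. The shares of the 6 libraries did not overlap between groups for any of the 3 genes. For Lamb3 this follows from the levels given above, and nothing further is read from it. The summed level of the beta chain genes was 14.1 ± 1.002 FPKM in GPR35-positive and 16.3 ± 2.30 FPKM in GPR35-negative libraries, so the sum differed by less than its parts.

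**Figure D2:**
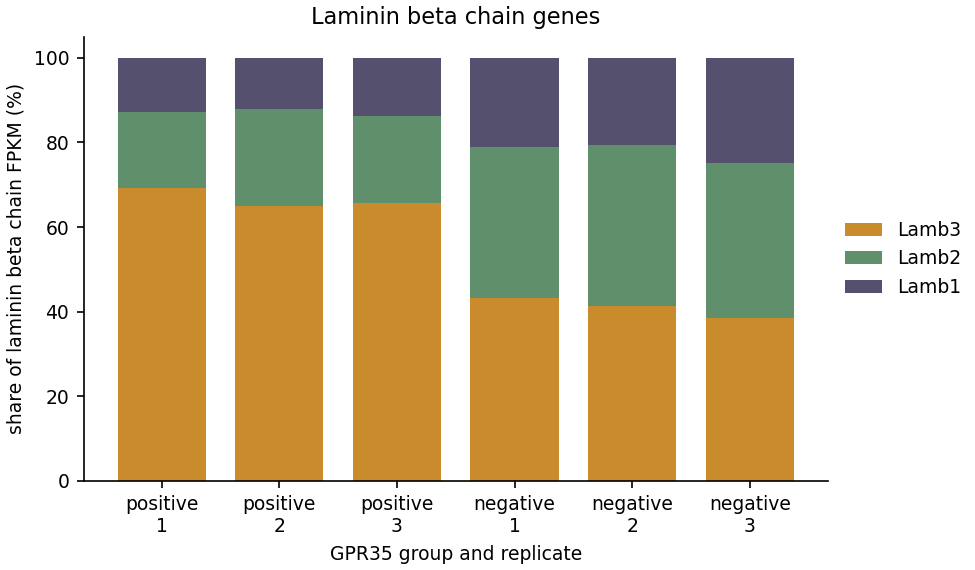
Share of the summed FPKM of Lamb1, Lamb2 and Lamb3 in each library (stacked bars, percent), with GPR35-positive libraries on the left. Lamb3 takes between 64.9% and 69.3% in the GPR35-positive libraries and between 38.4% and 43.2% in the GPR35-negative ones.

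The annotated span of Lamb3 holds 2 genes with large rises of their own. Lamb3, ENSMUSG00000026639, covers 193207699 to 193343878 on the forward strand of chromosome 1 in GENCODE M21, while the RefSeq window printed above starts at 193301744. Within that span and on the other strand lie Hsd11b1, from 193221634 to 193264075, which encodes a glucocorticoid-activating enzyme, and G0s2, from 193272161 to 193273217, which encodes an inhibitor of lipolysis and is abundant in neutrophils. G0s2 was at 876, 875 and 913 FPKM in the 3 GPR35-positive libraries, against 92.3, 86.6 and 75.6 FPKM in GPR35-negative ones. Hsd11b1 was at 6.45, 5.13 and 6.49 FPKM in the GPR35-positive group, against 0.832, 0.791 and 0.628 FPKM in the GPR35-negative group. Both were higher in every GPR35-positive library, 10.5-fold and 8.03-fold, with limma adjusted p = 5.32e-10 and 4.83e-08. Hsd11b1 passed the filter through the GPR35-positive libraries alone. The 2 genes share 0 exon bases with Lamb3. The table holds 1 value per gene, no source used here says whether counting was by strand, and the part of transcripts from this region in the Lamb3 value was not tested.

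Lamc1, the γ1 chain, was at 3.20, 3.05 and 2.82 FPKM in the 3 GPR35-positive libraries, against 4.56, 4.15 and 4.26 FPKM in GPR35-negative ones. The groups did not overlap, though the difference was modest, with a ratio of 0.6998 and a log2 fold change of −0.40 (SE 0.08).

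By mean FPKM over the 6 libraries, which is a level per gene length, the order from high to low was Itgb1, Itga3, Itga6, Lama5, Itgb4, Lamb3, Lamb2, Lamc1, Lamb1 and Lama3. An exact paired permutation test over the 6 libraries, two-sided, was made for each of the 9 neighbours in this order, with a smallest possible p of 0.0312. That p was reached by Itgb1 over Itga3, Itga3 over Itga6, Lamb3 over Lamb2, Lamc1 over Lamb1 and Lamb1 over Lama3, each in this order in 6 of 6 libraries, and came to 0.0562 with Benjamini-Hochberg adjustment over the 9, which misses 0.05. The mean log2 differences of these 5 ran from 0.51 (SD 0.29, n = 6, Lamc1 over Lamb1) to 5.98 (SD 1.26, n = 6, Lamb1 over Lama3). The other neighbours differed by no more than 0.44 on the log2 scale, with exact permutation p between 0.0938 and 0.906 (0.121 to 0.906 adjusted), so their order is not settled. Itgb4 and Lamb3 stood in the printed order in 3 of 6 libraries, Itgb4 being higher in the GPR35-negative and Lamb3 in the GPR35-positive ones. The order pools both groups. In GPR35-positive libraries alone 7 of the 9 neighbours kept it, and there Lamb3, at a mean of 9.41 FPKM, stood above Itga6 at 8.73 FPKM, Lama5 and Itgb4, and Lamc1 at 3.02 FPKM above Lamb2 at 2.91 FPKM. In GPR35-negative libraries alone all 9 kept it.

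Set beside the transcripts of the hepatoma itself, the 9 genes fell on both sides. Krt18, the keratin of simple epithelia, was at 4342, 4128 and 4203 FPKM in the 3 GPR35-positive libraries, against 6322, 6120 and 7124 FPKM in GPR35-negative ones, a ratio of 0.648. Of 19 hepatoma transcripts, 17 passed the filter, with ratios between 0.548 and 0.987 and a median of 0.659. Of these 17, 15 were lower (background 45.5%) and 0 higher by limma at an adjusted p of 0.05, led by Epcam, Gpc3, Apoe and Afp, with log2 fold changes of −0.70, −0.86, −0.60 and −0.60. The ratios of 5 of the 9 genes, Lama5 (0.401), Itgb4 (0.426), Lamb2 (0.485), Itga3 (0.505) and Lamb1 (0.512), were below those of all 17. Itga6 at 0.614, Lamc1 at 0.6998 and Itgb1 at 0.788 stood within the range, and Lamb3 at 1.40 above it. Since the 9 genes were chosen on the difference between the groups, nothing is read from the number below the range.

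**Figure D3:**
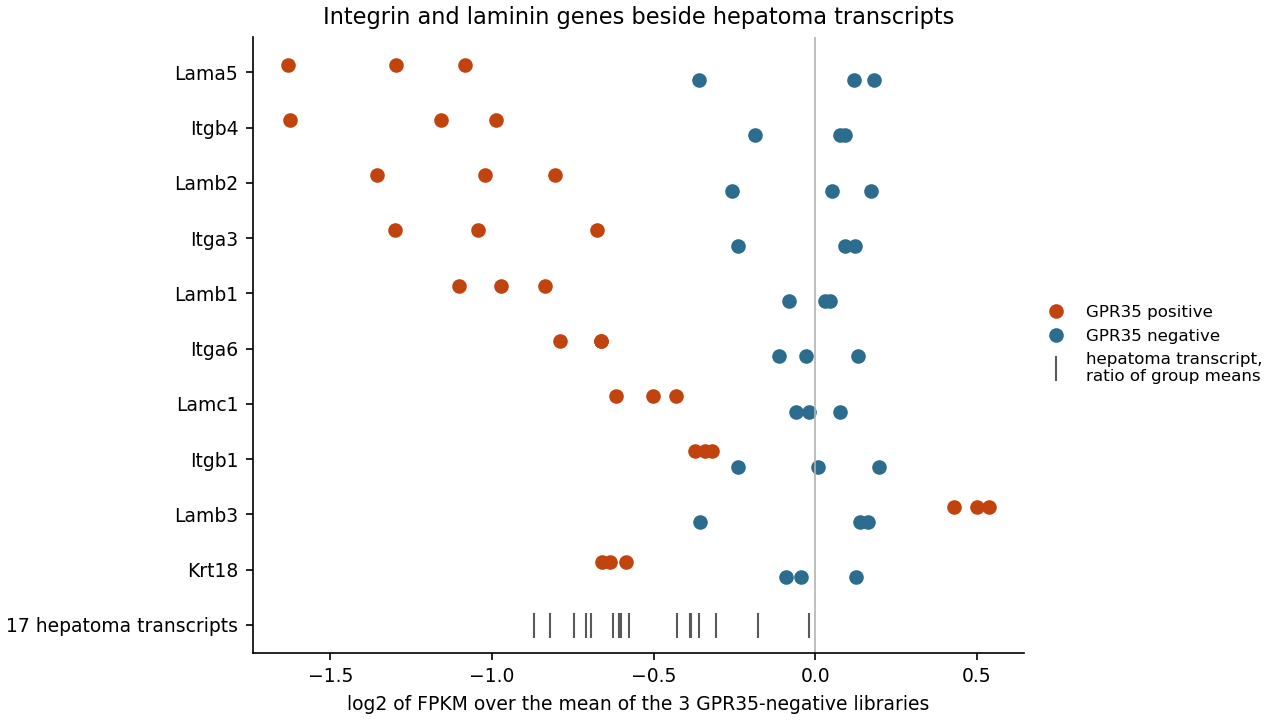
For the 9 genes above the filter and Krt18, the log2 of each library's FPKM over the mean of the 3 GPR35-negative libraries, with GPR35-positive libraries in orange and GPR35-negative ones in blue, and in the bottom row the log2 ratio of group means for 17 hepatoma transcripts (ticks). Lama5, Itgb4, Lamb2, Itga3 and Lamb1 lie to the left of the ticks on average, and Lamb3 lies to their right.

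Within each library the same order showed, with more overlap. The log2 ratio of Itgb4 to Krt18 was −10.14, −9.44 and −9.63 in GPR35-positive libraries, against −8.99, −8.92 and −9.42 in GPR35-negative ones, so the groups were just separated. For Lama5 it was −9.999, −9.38 and −9.62 in GPR35-positive libraries, against −8.79, −8.68 and −9.44 in GPR35-negative ones, and the groups overlapped. The differences between group means were −0.63 for Itgb4, −0.69 for Lama5, −0.43 for Lamb2, −0.37 for Itga3, −0.35 for Lamb1 and −0.08 for Itga6, and on the other side 0.11 for Lamc1, 0.29 for Itgb1 and 1.13 for Lamb3. Besides Itgb4, the groups were apart for Itgb1 and Lamb3, whose ratios to Krt18 were higher in every GPR35-positive library. Against the mean log2 FPKM of the 17 hepatoma transcripts, 4 genes, Itgb4, Lama5, Lamb1 and Lamb2, had every GPR35-positive library below every GPR35-negative one, with differences of −0.73, −0.79, −0.45 and −0.53. The shares of all genes that separate on these relative scales are not given here, so nothing is read from the counts. The median over the 9 genes was −0.35 relative to Krt18 and −0.45 relative to the 17 transcripts.

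The genes with the largest falls were also those whose transcripts had the highest GC content. The transcripts of these 4, Lama5, Itgb4, Itga3 and Lamb2, have 59.9%, 60.0%, 57.9% and 58.8% GC, while the other falling genes range from 44.9% (Itgb1) to 53.0% (Lamc1). Over all genes in the fit the median log2 fold change was −0.07 in the lowest and −0.36 in the highest of 10 equal classes of GC content. With a trend on GC content and length removed from each library, the log2 fold change was −0.89 for Lama5, −0.81 for Itgb4, −0.74 for Itga3 and −0.60 for Lamb2, and Lamb3 stood at 0.60. Those values are on the log2(FPKM + 1) scale, whereas relative values were taken on log2 FPKM, with the trend fitted on that scale. There the difference relative to Krt18 shrank to −0.16 for Itgb4, −0.22 for Lama5, −0.01 for Itga3 and −0.02 for Lamb2. The median over the 9 genes shrank to −0.01 relative to Krt18 and −0.07 relative to the 17 transcripts. Krt18 itself, with 56.4% GC, has 1437 exon bases against 5710 to 11388 in the 4 genes. Its log2 fold change on the log2(FPKM + 1) scale moved from −0.62 to −0.68. How much further than Krt18 the 4 genes fell therefore depends on this choice, under which the reference moved too. On log2 FPKM all 4 differences kept their sign, though those of Itga3 and Lamb2 became very small. On the log2(FPKM + 1) scale Lamb2, at −0.60, no longer fell as far as Krt18. Their own falls and the rise of Lamb3 did not end with it. The trend was fitted in each library, so any difference between the groups that goes with GC content or length is removed with it. The part of GC content or length in the falls was not tested.

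**Figure D4:**
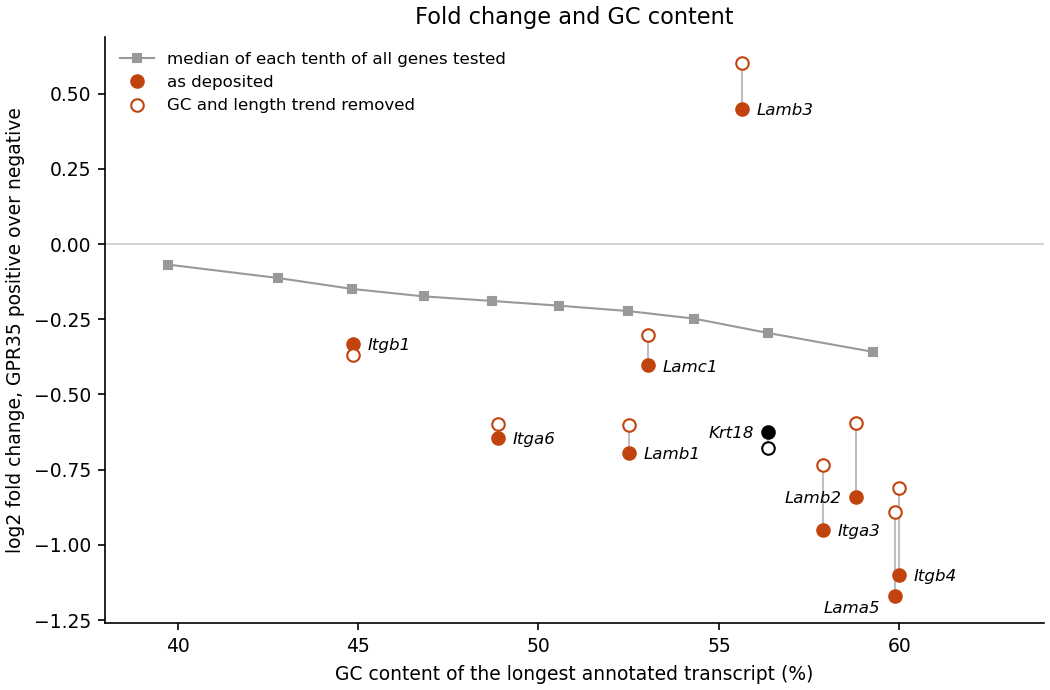
Log2 fold change, GPR35 positive over GPR35 negative, against the GC content of the longest transcript, for the 9 genes (orange) and Krt18 (black), as deposited (filled) and with the GC and length trend removed (open); grey squares are medians of 10 GC classes of all genes in the fit. Lama5, Itgb4, Lamb2 and Itga3 lie at the right with the largest falls, and their open points stand closer to zero.

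Single libraries also moved with these genes. GPR35-positive replicate 1 was the lowest of its group for 7 of the 9 genes, and GPR35-negative replicate 3 for 6 of the 9. The class of highest GC, 1006 genes of at least 57.5%, deviated from its group mean on average by −0.10 on the log2 scale in GPR35-positive replicate 1, by 0.09 in GPR35-positive replicate 2 and by −0.02 in GPR35-negative replicate 3. Without GPR35-positive replicate 1 the log2 fold change was −0.95 for Itgb4 and −1.05 for Lama5, and the median relative to Krt18 −0.21.

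Among the genes whose profile over the 6 libraries was most like that of Itgb4, by the root-mean-square difference of centred log2 values among 9830 named protein-coding genes, were Igfbp4, which binds insulin-like growth factors, Kank2, Llgl2, an epithelial polarity gene, and Gaa, a lysosomal glucosidase, at 0.06 to 0.08 log2 units. Among those most like Lama5 were Hnf4a, a liver transcription factor, Tbx3, Itgb4 itself and Vars, at 0.06 to 0.09. Their log2 fold changes were between −0.99 and −1.16. Likeness over 6 libraries in 2 groups rests mostly on the difference between the groups.

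The further genes of the pathway were taken as lists by role. Of 10 hemidesmosome and laminin-binding partners above the filter, 9 fell and 1 rose by limma's adjusted p at 0.05, where 45.5% and 23.3% of all genes did, and the median log2 fold change was −0.46. Cd151, the tetraspanin that binds α3β1 and α6β4, was at 8.33 ± 0.444 FPKM in GPR35-positive and 14.7 ± 2.18 FPKM in GPR35-negative libraries (SD, n = 3 each, limma adjusted p = 0.000145). Plec, which ties β4 to keratins, was at 3.19 ± 0.380 FPKM in GPR35-positive and 4.71 ± 1.004 FPKM in GPR35-negative libraries (limma adjusted p = 0.0147) and did not pass with the GC and length trend removed (adjusted p = 0.467), without a filter (0.0504), or without GPR35-positive replicate 1 (0.0550), GPR35-negative replicate 1 (0.0592) or GPR35-negative replicate 2 (0.0574). Dst and Sdc1, a laminin-binding syndecan, fell by 0.45 and 0.53 in log2 terms. Sdc4, another syndecan, did not pass without a filter (limma adjusted p = 0.0619), with median-of-ratios scaling (0.0807) or without GPR35-positive replicate 2 (0.0548). Without a filter 7 of the 12 genes listed were lower and 1 higher, where 22.1% and 17.4% of all genes were. The gene that rose was Cd9, another tetraspanin partner that myeloid cells also carry, at 613 ± 41.6 FPKM in GPR35-positive and 342 ± 9.92 FPKM in GPR35-negative libraries (adjusted p = 3.17e-06). Col17a1, the collagen of skin hemidesmosomes, was at 0.00647 ± 0.0112 FPKM in GPR35-positive and 0.0235 ± 0.0119 FPKM in GPR35-negative libraries, below the filter.

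Of 14 basement membrane genes, 4 were above the filter and were lower, where 45.5% of all genes were, with a median log2 fold change of −0.73. Without a filter the list had no common direction. Of its 14 genes these 4 were lower and 3 higher, where limma called 22.1% of all genes lower and 17.4% higher, and the median was 0.03. Col18a1, the source of endostatin, was at 3.86 ± 0.992 FPKM in GPR35-positive and 8.98 ± 2.32 FPKM in GPR35-negative libraries (SD, n = 3 each, limma adjusted p = 0.000655). The perlecan gene Hspg2 was at 0.752 ± 0.192 FPKM in GPR35-positive and 2.01 ± 0.383 FPKM in GPR35-negative libraries, and passed the filter through the GPR35-negative libraries alone. Fbln1 and Agrn fell by 0.68 and 0.42 in log2 terms.

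Other integrin genes moved in both directions. Of 5 non-leukocyte integrin subunits above the filter, 3 fell, Itgav by 0.42, Itgb5 by 0.39 and Itga2 by 0.31 in log2 terms, and Itgb3 and Itga5 rose by 0.70 and 0.29, beside 45.5% lower and 23.3% higher among all genes. Itgb3 passed the filter through the GPR35-positive libraries alone. Itga2 did not pass without a filter, with median-of-ratios scaling, or without GPR35-positive replicate 1, GPR35-positive replicate 2 or GPR35-negative replicate 1 (limma adjusted p between 0.0582 and 0.0839). Itga5 did not pass without a filter, or without GPR35-positive replicate 2, GPR35-positive replicate 3 or GPR35-negative replicate 3 (limma adjusted p between 0.0519 and 0.128). The leukocyte integrin subunits were higher in GPR35-positive libraries, 5 of 9 being above the filter, of which Itgam and Itgax passed it through the GPR35-positive libraries alone. In limma's fit without a filter all 9 were higher, where 17.4% of all genes were, with a median log2 fold change of 0.66. Itgb2, the β subunit shared by the leukocyte integrins, was at 60.5 ± 2.36 FPKM in GPR35-positive and 6.80 ± 0.409 FPKM in GPR35-negative libraries (SD, n = 3 each, limma adjusted p = 6.21e-10). Itgam, the alpha subunit of Mac-1, was at 5.58 ± 0.222 FPKM in GPR35-positive and 0.545 ± 0.0601 FPKM in GPR35-negative libraries.

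Of 14 genes that link integrins to actin, 3 rose, 5 fell and 6 did not pass, with a median of 0.03, where 23.3% of all genes were higher and 45.5% lower. The kindlin genes moved apart. Fermt3, the kindlin of blood cells, was at 12.3 ± 0.602 FPKM in GPR35-positive and 1.62 ± 0.201 FPKM in GPR35-negative libraries, and Fermt2, that of most other cells, at 16.6 ± 0.533 FPKM in GPR35-positive and 26.8 ± 1.88 FPKM in GPR35-negative libraries (SD, n = 3 each, limma adjusted p = 5.91e-09 and 3.81e-05). Lims1 and Zyx rose by 0.84 and 0.87 on the log2 scale. Further genes of this list passed as higher under other settings, Tns3 and Itgb1bp1 when libraries were scaled by median of ratios (limma adjusted p = 0.0330 and 0.0211), and Tln1, Pxn and Tns3 with the GC and length trend removed (0.0287, 0.0131 and 0.0197).

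**Figure D5:**
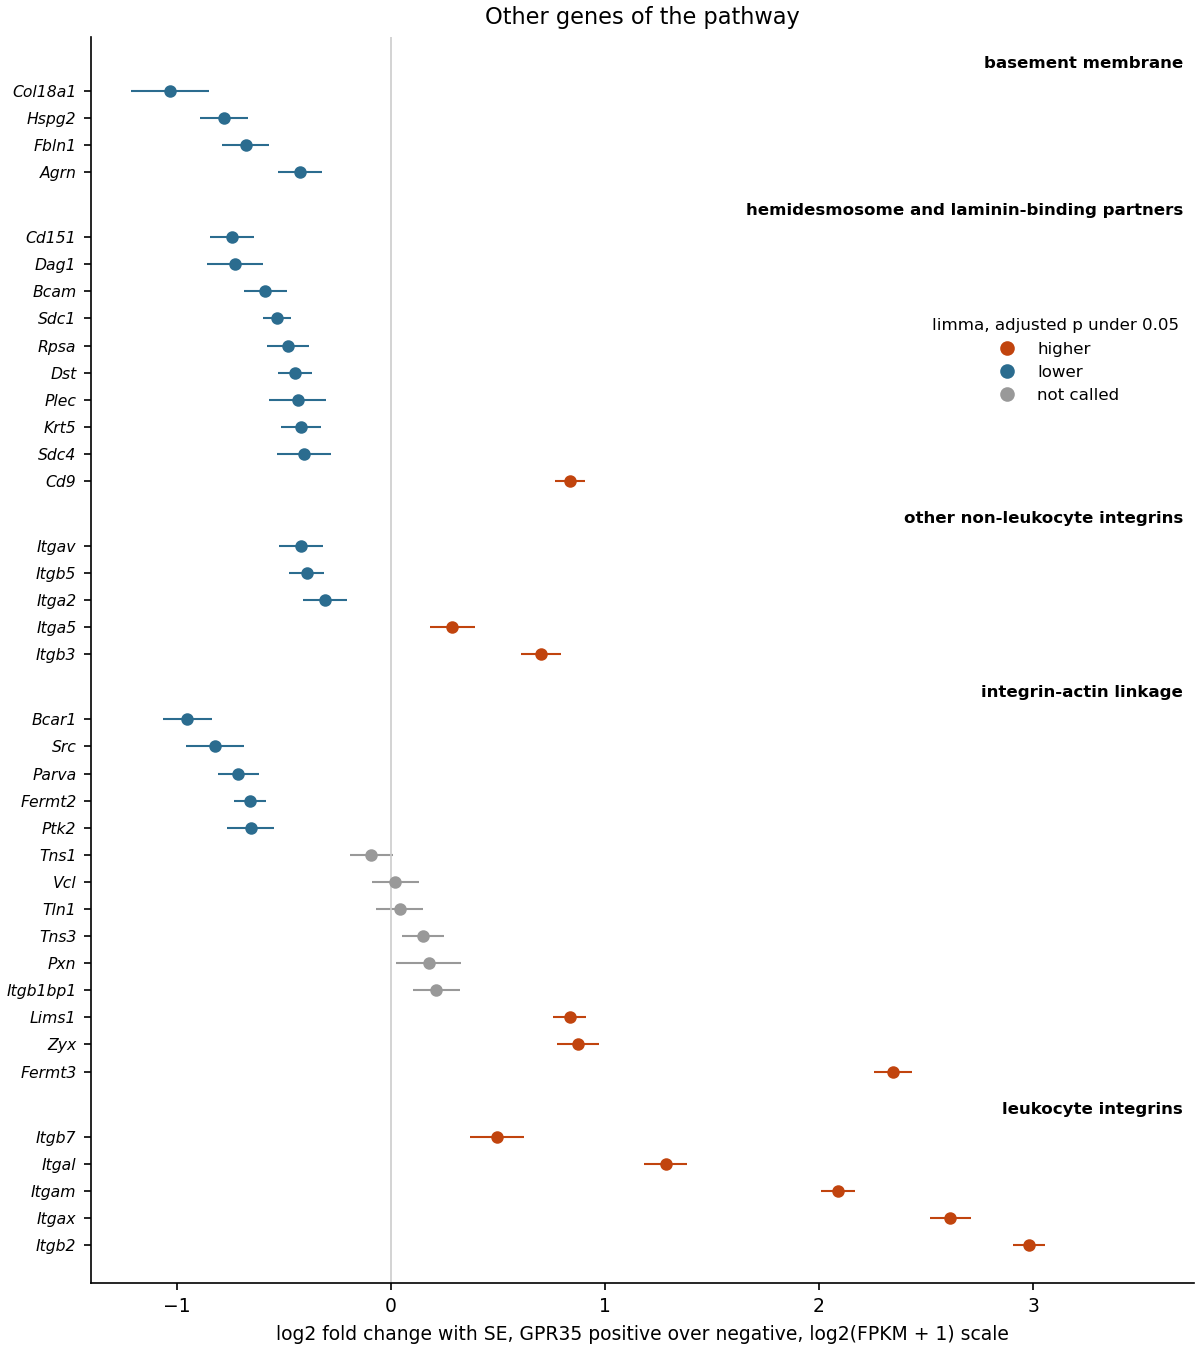
Log2 fold change with SE, GPR35 positive over GPR35 negative, of each gene above the filter in 5 lists of related genes, coloured by limma's call at an adjusted p of 0.05. Basement membrane genes and most laminin-binding partners lie left of zero and the 5 leukocyte integrin subunits right of it.

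Markers of other cell types moved in the same libraries as follows. Endothelial markers, 12 genes, summed to between 14.6 and 15.6 FPKM in GPR35-positive and between 14.4 and 16.0 FPKM in GPR35-negative libraries. That near-equal sum held genes that differed, with Pecam1 and Eng higher and Egfl7 and Esam lower in every GPR35-positive library than in every GPR35-negative one. Over all genes in the fit 24.3% separated upwards and 48.2% downwards. Of these 4 markers, Eng passed the filter through the GPR35-positive libraries alone. Esam did not pass without a filter, with median-of-ratios scaling, or without GPR35-positive replicate 2 or GPR35-negative replicate 1 (limma adjusted p between 0.0532 and 0.162). Pecam1 did not pass without GPR35-positive replicate 1 or GPR35-negative replicate 2 (limma adjusted p = 0.0582 and 0.0734). The other 8 stayed under 1 FPKM in every library, and among these Stab2 was at 0.539 ± 0.0129 FPKM in GPR35-positive and 0.0156 ± 0.0138 FPKM in GPR35-negative libraries, Vwf averaged 0.222 FPKM in GPR35-positive and 0.0222 FPKM in GPR35-negative ones, and Cdh5 averaged 0.106 FPKM in GPR35-positive libraries and was listed at 0 in GPR35-negative ones. Without a filter 7 of the 12 were higher and 1 lower, where 17.4% and 22.1% of all genes were. Fibroblast and stellate cell markers, 10 genes, summed to between 35.8 and 42.7 FPKM in GPR35-positive and between 16.997 and 23.1 FPKM in GPR35-negative libraries. Of 7 above the filter 6 were higher and 1, Des, was lower by limma, with a log2 fold change of −0.54, where 23.3% and 45.5% of all genes were. Among the 6, Rgs5 passed the filter through the GPR35-positive libraries alone. Without a filter 6 of the 10 were higher and 1 lower, where 17.4% and 22.1% of all genes were. With the filter, the number higher was 4 without GPR35-positive replicate 3 and without GPR35-negative replicate 3. The genes lost there were Col1a1, which did not pass without GPR35-positive replicate 2 or a filter either (limma adjusted p between 0.0553 and 0.0985 over these settings), and Dcn, which did not pass under 8 alternatives (0.0576 to 0.250). Of 6 bile duct and squamous markers above the filter, 5 fell, Krt19 and Krt7 by 0.86 and 0.82 on the log2 scale, where 45.5% of all genes did. The other, Spp1, which macrophages make too, was at 283 ± 24.1 FPKM in GPR35-positive and 81.4 ± 9.25 FPKM in GPR35-negative libraries, a log2 fold change of 1.79 (limma adjusted p = 5.76e-08), while Krt14, Trp63 and Krt17 stayed under 1 FPKM. T and NK cell markers, 11 genes, summed to between 59.0 and 61.0 FPKM in GPR35-positive and between 72.8 and 90.7 FPKM in GPR35-negative libraries. Of 8 above the filter 4 were lower by limma, where 45.5% of all genes were, and 4 did not pass. Without a filter 4 of the 11 were lower and 1 higher, where 22.1% and 17.4% of all genes were. The macrophage list, 12 genes, summed to between 937 and 969 FPKM in GPR35-positive and between 36.7 and 50.1 FPKM in GPR35-negative libraries, and its part, like that of the others, in the levels of the 10 genes was not tested.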

How the data were processed

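Total RNA of 6 libraries was extracted with Trizol and made into libraries with the NEBNext Ultra II kit, per the labels' protocols. The authors deposited FPKM per gene, per the file headers. Tools listed in the submitters' processing notes, with no roles, are HTSeq 0.9.1, DESeq 1.38.3, HISAT2 2.1.0 and fastp 0.22.0. They also list the human build GRCh38, although the gene IDs are those of mouse. Symbols, positions (GRCm38) and exon lengths came from GENCODE M21, in which 21851 of 21959 IDs had an entry. With those lengths 97.7% of values above 0 were whole reads within 0.02 reads, which gave the depths and read counts. For low genes, counting error adds to the spread between libraries.

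Genes reaching 1 FPKM in 3 or more libraries were fitted with limma-trend (limma 3.58.1, R 4.3.3) on log2(FPKM + 1), which understates changes of low genes, in a model of the group alone. P-values were adjusted over all of these genes by Benjamini-Hochberg. The test was checked on simulated data. The genes and lists were chosen with earlier results of these data known. Named genes are the 10 genes, Gpr35, Krt18, set partners (Cd151, Plec, Col17a1, Itgb2, Itgam), up to 4 genes per list with the smallest p, and the 5 nearest profiles, except for results that are not reported here. Other genes named were chosen after their values were seen. The trend on GC content and length used natural splines of 4 degrees of freedom. Python 3.11.15, numpy 2.4.6, pandas 2.3.3 and matplotlib 3.10.9 were used for tables and figures. All 6 value columns were used.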

Additional observations from a re-analysis of the deposited data

How the results depend on the processing

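Each of the 9 genes kept the direction of its difference under every alternative tried: a pseudocount of 0.1, no filter, a mean of at least 5 FPKM (which leaves out Lamb1, Lamb2 and Lamc1), limma-voom on recovered reads, a replicate block, median-of-ratios scaling, library totals that omit mitochondrial genes and the top 50, the GC and length trend removed, and leaving out each library. The median log2 fold change of the 9, −0.69, was −0.93 with a pseudocount of 0.1 and −0.97 with limma-voom, both of which shrink low genes less, and between −0.74 and −0.65 with 1 library left out. The median relative to Krt18, −0.35, was −0.00869 with the GC and length trend removed and between −0.45 and −0.21 with 1 library left out, and that relative to hepatoma transcripts, −0.45, was −0.0739 with that trend removed and between −0.46 and −0.34.

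Over all genes 2342 were higher and 4575 lower, against 2731 and 3036 with median-of-ratios scaling, so that 47.4% of calls were higher in place of 33.9%. With a mean of at least 5 FPKM, which tests fewer genes, 1260 were higher. Leaving out 1 library gave 2176 to 2362 higher and 3900 to 4558 lower. Over the 6 lists of related genes 11 of the 39 tested were higher and 22 lower, where 23.3% and 45.5% of all genes were. Without a filter these were 21 and 22 of 73, where 17.4% and 22.1% of all genes were. With a mean of at least 5 FPKM they were 7 and 13 of 23, where 1260 and 3175 of all 5983 genes were. With 1 library left out they were 10 to 12 and 20 to 22. These list alternatives were chosen after seeing the data. Of the 9 neighbours in the order of levels, 8 had a mean log2 difference in the printed direction, and 8 to 9 with 1 library left out. With the replicate block, 2365 genes were higher and 4633 lower. The numbers are not taken to pair the samples, because same-numbered libraries deviated together in replicate 2 (r = 0.40 across genes) but not in replicates 1 and 3 (r = −0.00177 and −0.06), and not every library was closest to its own number. Lama3, at 2 to 17 reads, is too shallow to show a difference.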

Other observations

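Of 34 genes of the lists below the filter on low values, 11 were higher, 3 lower and 20 neither in limma's fit without a filter, where 17.4% of all genes were higher and 22.1% lower. Among them, 3 of 10 basement membrane genes were higher in GPR35-positive libraries and 0 lower. The type IV collagen genes Col4a1 and Col4a2, which encode the network-forming collagen of vessel and organ basement membranes, were at 0.567 ± 0.160 and 1.17 ± 0.150 FPKM in the 3 GPR35-positive libraries, against 0.142 ± 0.0188 and 0.185 ± 0.0781 FPKM in GPR35-negative ones (SD, n = 3 each, limma adjusted p = 0.00237 and 0.000139). Nid2, which links laminin to collagen, was at 0.250 ± 0.0990 FPKM in GPR35-positive and 0.0577 ± 0.0180 FPKM in GPR35-negative libraries (adjusted p = 0.0136), and the vascular laminin chain gene Lama4 at 0.0855 ± 0.0286 FPKM in GPR35-positive and 0.0179 ± 0.0121 FPKM in GPR35-negative libraries (adjusted p = 0.0204). The choice of these genes followed a look at their values. The fibroblast and stellate marker Acta2 was at 13.8 ± 0.280 FPKM in GPR35-positive and 2.21 ± 0.363 FPKM in GPR35-negative libraries (limma adjusted p = 1.4e-08), whereas Des of that list was lower. The endothelial markers Stab2 and Vwf, both under 1 FPKM, were higher in every GPR35-positive library than in every GPR35-negative one. Egfl7 and Esam of the endothelial list were lower in every GPR35-positive library. Without a filter 7 of the 12 endothelial markers were higher and 1 lower, where 17.4% and 22.1% of all genes were. The part of such cells in the collagen levels was not tested.

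Itga9, an integrin subunit of neutrophils in human blood, was also below the filter, at 0.598 ± 0.0479 FPKM in GPR35-positive and 0.0434 ± 0.0315 FPKM in GPR35-negative libraries (SD, n = 3 each, limma adjusted p = 2.83e-05 without a filter). All 4 leukocyte integrin subunits below the filter, Itga4, Itgad, Itgae and Itgb2l, were higher in the same fit, where 17.4% of all genes were. They are among the 9 counted above. Their levels were low, with Itgad listed at 0 and Itgb2l at 6 to 13 reads in GPR35-negative libraries.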
